A study of Mus musculus with 10 samples.

Results

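The endocannabinoid receptor and enzyme genes examined here were Cnr1, Faah, Mgll, Dagla, Daglb, Napepld and Abhd6. Each member was found as a probe set (a group of array probes read out as 1 value) whose only annotated gene symbol was on this list, which gave 7 probe sets, 1 per gene, out of 21789 probe sets with 1 gene symbol. The study asked whether alcohol exposure before and soon after birth leaves a trace in gene expression of the adult mouse brain. All animals were male C57BL/6J offspring, and their whole brains were taken at postnatal day 70. Mothers of the ethanol groups had access to 10% ethanol in water from gestational day 0 until the pups reached postnatal day 10, and mothers of the control groups drank water only. Experiment 1 comprised 2 ethanol and 2 control arrays, each hybridised with RNA pooled from 3 mice, and experiment 2 comprised 3 ethanol and 3 control arrays of 2 mice each, 12 mice in either experiment. A pool averages its animals, so the replicates are pools and not single mice, and whether pools shared litters is not given in the sources used here. p-values therefore measure the spread between pools.

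Endocannabinoids are lipid messengers that neurons make on demand from membrane phospholipids. They travel backwards across the synapse to the cannabinoid receptor CB1 on the presynaptic terminal and lower transmitter release there. The main messengers are 2-arachidonoylglycerol, made by diacylglycerol lipases and broken down mostly by monoacylglycerol lipase, and anandamide, which the phospholipase encoded by Napepld can release and fatty acid amide hydrolase degrades. In brain, CB1 is dense on the terminals of cholecystokinin interneurons and on cerebellar and basal ganglia axons.

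No member differed between ethanol and control arrays past the threshold, in either experiment or over both. Over both experiments the differences ran from -0.09 (Daglb) to 0.02 (Faah) log2 units, and 5 of the 7 members were lower with ethanol (54.4% of all tested probe sets were) and 2 higher. No 95% interval reached beyond a difference of 1.15-fold in either direction. Of all tested probe sets, limma called 0 at an adjusted p of 0.05, which is 0% (smallest adjusted p = 0.215), and 2703, or 12.4%, had an unadjusted p under 0.05 (1029 higher and 1674 lower). An unmoderated linear model called 0 and had 2422 at that unadjusted p. None of the 7 members reached that unadjusted p.

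All values are log2 signals as deposited, and a difference of 1 is a doubling. For every probe set the mean of experiment 1 equalled that of experiment 2 to within 5.83e-05, so a shift between the experiments had been taken out before deposit, and levels are compared here only within an experiment. A probe set's signal also depends on its probes, so no member's level is set against another's. The array medians lay between 6.99 and 7.05, and the means of 5 neuronal markers between 12.43 and 12.54. The mean of 6 astrocyte markers was 10.60 and 10.66 with ethanol against 10.69 and 10.62 in experiment 1. In experiment 2 it was 10.62, 10.60 and 10.58 against 10.67, 10.71 and 10.70, so the groups were apart, and all 6 markers were lower there. Markers of the pituitary, which can stay attached to a dissected brain, were higher on the ethanol arrays for all 8 measured. Their mean was 8.02 and 7.23 against 5.82 and 5.97 in experiment 1, and 6.38, 8.55 and 6.41 against 6.32, 6.25 and 6.66 in experiment 2. All 7 choroid plexus markers were lower in the fit over both experiments, with a median of -0.24. In experiment 1, 5 were lower and 2 higher, with a median of -0.05. In experiment 2 all 7 were lower, with a median of -0.35. The part of astrocytes or of either tissue in the members' values was not tested. Because whole brains were used, fewer cells of a type and less RNA per cell cannot be told apart.

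RefSeq promoter sequences (GRCm38.p6, 250 bases before to 50 after a gene's start) matched 6 of the 7 members, all but Dagla, with 10 start sites in all. The arrays do not read these sequences, and they are shown for the receptor, which had the largest difference within an experiment, and for Daglb, which had the smallest p over both experiments. Every CpG, the dinucleotide that DNA methylation targets, is in capitals. The first of 3 Cnr1 windows lies at chr4:33924014-33924313 on the plus strand and holds 40 CpG in sequence of 76.3% G and C, more CpG than 96.1% of all 32851 promoter windows. The Daglb window lies at chr5:143464243-143464542 on the plus strand and holds 11 CpG at 51.0% G and C, more CpG than 58.6% of the windows, whose median is 7.
Cnr1: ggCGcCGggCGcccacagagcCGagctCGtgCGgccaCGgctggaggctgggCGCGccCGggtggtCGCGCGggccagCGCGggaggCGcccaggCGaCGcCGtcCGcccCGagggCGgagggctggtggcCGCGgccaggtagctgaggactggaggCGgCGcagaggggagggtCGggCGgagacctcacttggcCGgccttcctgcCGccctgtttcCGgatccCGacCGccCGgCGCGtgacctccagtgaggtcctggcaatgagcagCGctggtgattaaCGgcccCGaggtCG
Daglb: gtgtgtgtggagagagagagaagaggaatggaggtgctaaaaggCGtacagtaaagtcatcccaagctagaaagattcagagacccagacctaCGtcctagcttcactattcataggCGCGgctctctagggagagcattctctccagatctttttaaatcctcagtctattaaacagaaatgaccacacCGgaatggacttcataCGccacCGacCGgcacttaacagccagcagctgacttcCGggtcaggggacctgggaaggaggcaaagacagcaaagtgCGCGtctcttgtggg
The GC box letters GGGCGG, searched on both strands, occur 5 times in the Cnr1 window and are not in the Daglb window. Among all windows 35.7% hold them, and 6 of the members' 10 windows do, those of Cnr1 (1 of 3), Faah, Mgll and Abhd6. The Abhd6 windows overlap and hold the same site, which is thus counted in both. The TATA letters TATAAA are in none of the members' windows and in 13.6% of all windows. The other windows hold 16 CpG for Faah, 28 for Napepld, 24 and 26 for Abhd6, 32 and 42 for Mgll, and 33 and 5 for the later starts of Cnr1. The receptor's last start thus had fewer CpG than any other window of the members.

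**Figure D1:**
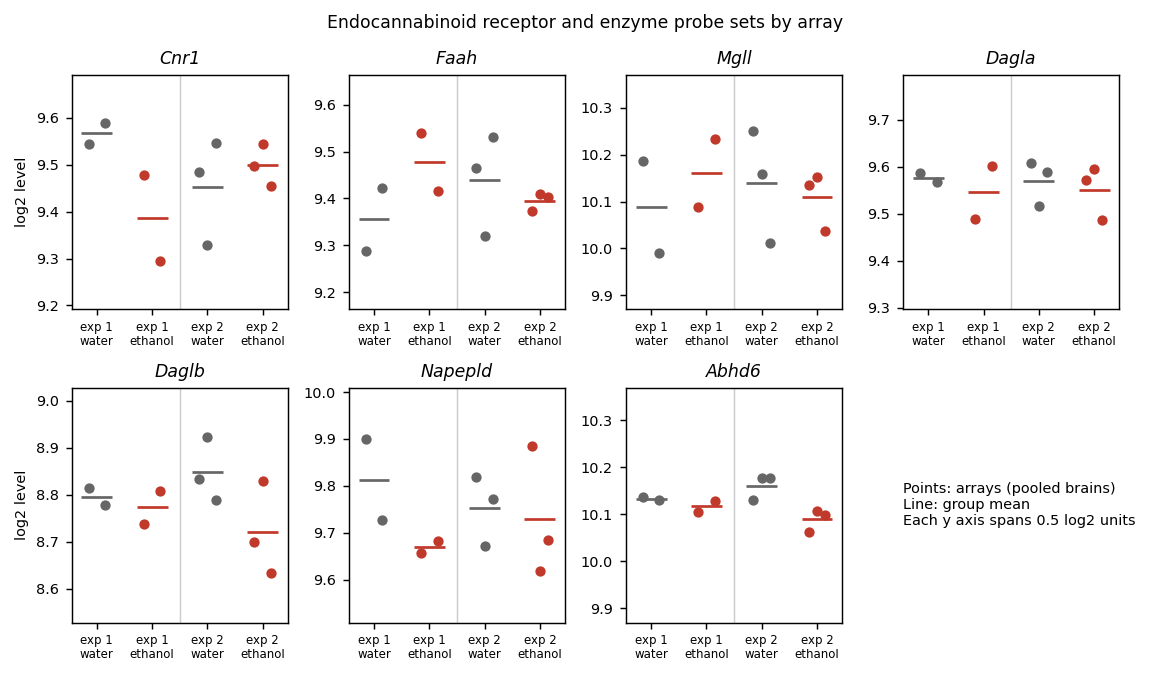
Log2 level of each member on every array, by experiment and treatment (points are arrays of pooled brains, lines are group means; each vertical axis spans 0.5 log2 units but starts at a different level). In experiment 1 both ethanol arrays lie below both controls for Cnr1, Napepld and, by a very small margin, Abhd6; in experiment 2 this is so for Abhd6 only.

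Among the enzymes that make endocannabinoids, the diacylglycerol lipase Dagla, which supplies most of the 2-arachidonoylglycerol used at adult synapses, was level between treatments. In experiment 1 it stood at 9.49 and 9.60 with ethanol and at 9.59 and 9.57 on the controls. In experiment 2 it stood at 9.57, 9.60 and 9.49 against 9.61, 9.52 and 9.59. The groups overlapped in both experiments. The difference over both was -0.02 ± 0.042 log2 units (SE, 5 against 5 arrays; limma adjusted p = 0.832), and its 95% interval of -0.11 to 0.067 holds changes of up to 1.08-fold lower and 1.05-fold higher.

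Its relative Daglb, which is prominent in microglia and other myeloid cells, had the lowest estimate and the smallest p of the members over both experiments. In experiment 1 the ethanol arrays read 8.74 and 8.81 and the controls 8.81 and 8.78, a difference of -0.02 ± 0.076. In experiment 2 they read 8.70, 8.83 and 8.63 against 8.83, 8.92 and 8.79. There all 3 ethanol arrays were below the control mean, but replicate 2 at 8.83 was above the lowest control, so the groups overlapped. The difference in experiment 2 was -0.13 ± 0.062 (limma adjusted p = 0.525), and over both experiments -0.09 ± 0.049 (adjusted p = 0.478). Without ethanol replicate 3 of experiment 2 the value in that experiment was -0.08, and without ethanol replicate 2 it was -0.18. The mean of 6 microglial markers was also lower on the ethanol arrays of experiment 2, at 8.76, 8.76 and 8.77 against 8.96, 8.94 and 8.84, and 5 of the 6 were lower there. In experiment 1, where Daglb was close to level, that mean was 8.85 and 8.85 against 8.90 and 8.75. A lower mean in experiment 2 was not particular to microglia: the astrocyte and choroid plexus marker means were also lower on all ethanol arrays there. The choroid plexus mean was 8.66, 8.59 and 8.51 against 8.89, 8.95 and 8.81. The part of microglia in the Daglb values was not tested.

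Napepld encodes the phospholipase D that releases anandamide and related amides from their membrane precursors. In experiment 1 it read 9.66 and 9.68 on the ethanol arrays and 9.90 and 9.73 on the controls, so both ethanol arrays were below both controls. The difference there was -0.14 ± 0.094 (limma adjusted p = 0.687), and it was -0.06 without control replicate 1 and -0.23 without control replicate 2. In experiment 2 the ethanol arrays spread from 9.62 (replicate 2) over 9.69 (replicate 3) to 9.89 (replicate 1) and enclosed the controls at 9.82, 9.67 and 9.77, with a difference of -0.02 ± 0.076. Over both experiments it was -0.07 ± 0.059 (adjusted p = 0.613). The high array, ethanol replicate 1 of experiment 2, weighs on this value, which was -0.12 without it (unadjusted p = 0.0380, adjusted p = 0.412). Among the members its interval reached furthest down, to -0.20 log2 units or 1.15-fold lower.

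Cnr1, the gene of the CB1 receptor, went in opposite directions in the experiments. In experiment 1 the ethanol arrays read 9.48 and 9.29 and the controls 9.54 and 9.59. Both ethanol arrays were thus below both controls, replicate 2 furthest, and after quantile normalization the groups overlapped. In experiment 2 the ethanol arrays read 9.50, 9.54 and 9.46 and the controls 9.48, 9.33 and 9.55. All 3 ethanol arrays there were above the control mean, which control replicate 2 lowered, and the groups overlapped. The difference was -0.18 ± 0.085 in experiment 1, the largest of any member within an experiment (limma adjusted p = 0.563), and 0.05 ± 0.069 in experiment 2 (adjusted p = 0.848). Over both it was -0.04 ± 0.060 (adjusted p = 0.776).

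Faah, whose product degrades anandamide, showed the reverse order. In experiment 1 it read 9.54 and 9.42 with ethanol and 9.29 and 9.42 on the controls, and in experiment 2 it read 9.37, 9.41 and 9.40 against 9.46, 9.32 and 9.53. The groups overlapped in both experiments. The difference was 0.12 ± 0.081 in experiment 1 (limma adjusted p = 0.689) and -0.04 ± 0.066 in experiment 2 (adjusted p = 0.852). The value of experiment 1 was 0.06 without ethanol replicate 1, 0.05 without control replicate 1, 0.18 without ethanol replicate 2 and 0.19 without control replicate 2. The tests of the difference between the experiments gave 0.23 ± 0.11 for Cnr1 (limma adjusted p = 0.775) and -0.17 ± 0.11 for Faah (adjusted p = 0.840), experiment 2 minus experiment 1. In that test 0 of the 7 members had an unadjusted p under 0.05, against 6.57% of all tested probe sets. For these 2 members every ethanol array of an experiment was on the same side of its control mean and on the opposite side in the other experiment, a pattern that 10.6% of tested probe sets had.

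The cerebellum holds much of the brain's CB1 on its granule cell axons, so the markers of granule and Purkinje cells are given beside Cnr1. All 9 measured were lower on the ethanol arrays of experiment 1, with a median of -0.34, and their mean was 10.80 and 10.43 there against 10.96 and 10.94 on the controls. Ethanol replicate 2 had both the lowest marker mean and the lowest Cnr1, and without it the Cnr1 difference of experiment 1 was -0.09 (limma adjusted p = 0.784). Without ethanol replicate 1 it was -0.27 (limma adjusted p = 0.236). All 9 were also lower in experiment 2, with a median of -0.11, where Cnr1 was higher by 0.05. There the lowest marker mean, 10.52, was on ethanol replicate 3, where Cnr1 was at 9.46, while the lowest Cnr1 was on control replicate 2, with a marker mean of 10.81. The mean of 6 markers of cholecystokinin and related interneurons was 7.81 and 7.82 against 7.80 and 7.81 in experiment 1, but its members went both ways, from -0.24 (Adarb2) to 0.14 (Vip), with Cck at 0.12. In experiment 2 that mean was 7.84, 7.78 and 7.77 against 7.85, 7.81 and 7.80. Of 6 markers of striatal projection neurons, in the basal ganglia, 5 were higher in experiment 1, with a median of 0.08. In experiment 2, 5 were lower, with a median of -0.08, so this list ran opposite to Cnr1 in both experiments. Its mean was 10.47 and 10.53 against 10.44 and 10.38, then 10.42, 10.40 and 10.43 against 10.53, 10.46 and 10.50. The part of any of these cells in the Cnr1 values was not tested.

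Mgll encodes monoacylglycerol lipase, the main hydrolase of 2-arachidonoylglycerol in brain. In experiment 1 it read 10.09 and 10.23 with ethanol and 10.19 and 9.99 on the controls. In experiment 2 it read 10.14, 10.15 and 10.04 against 10.25, 10.16 and 10.01. The groups overlapped in both experiments, and in each the lowest array was a control. After quantile normalization the ethanol arrays of experiment 1 were both above the controls. The difference over both was 0.01 ± 0.059 (limma adjusted p = 0.954), with a 95% interval of -0.12 to 0.14.

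Abhd6 encodes a membrane-bound hydrolase that takes a smaller share of 2-arachidonoylglycerol on the postsynaptic side. It was the member whose groups did not overlap in either experiment. In experiment 1 the ethanol arrays read 10.105 and 10.129 and the controls 10.136 and 10.131, so the margin was in the third decimal. In experiment 2 the ethanol arrays read 10.062, 10.108 and 10.098 and the controls 10.130, 10.177 and 10.177, and the separation was clearer. The groups of 2.82% of tested probe sets were apart in this direction in both experiments. The difference was -0.02 ± 0.058 in experiment 1, -0.07 ± 0.047 in experiment 2 (limma adjusted p = 0.628) and -0.05 ± 0.036 over both (adjusted p = 0.571). After quantile normalization it was 0.03 in experiment 1, where the groups then overlapped, and the groups of experiment 2 stayed apart. All 5 ethanol arrays were below the control mean of their experiment, as they were for 11.9% of tested probe sets. Abhd6 varied little between pools of a group. Its SD within groups was 0.0222 log2 units, against a median of 0.0809 over tested probe sets, and 0.33% of them had one as small or smaller. limma raises so small a spread toward that of other probe sets. With the gene's own spread alone the difference over both experiments was -0.05 ± 0.017 (unadjusted p = 0.0199, adjusted p = 0.406), so it missed the threshold by either test.

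**Figure D2:**
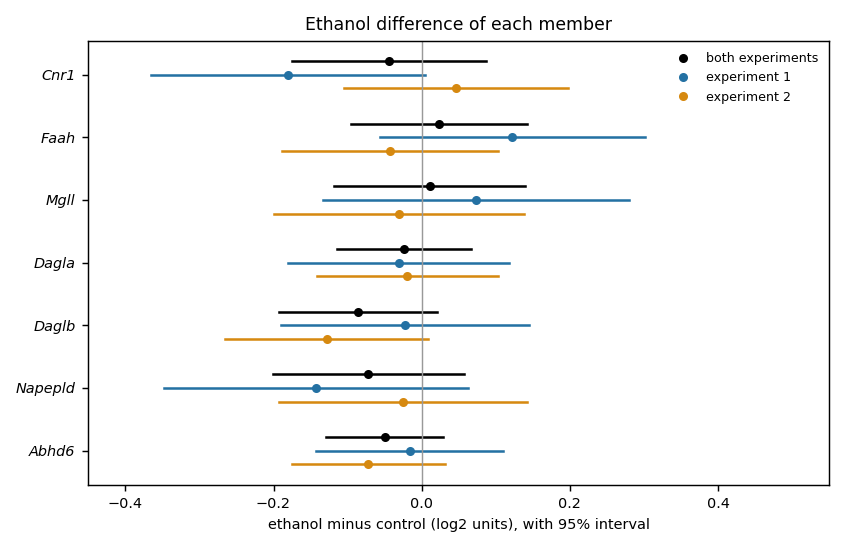
Ethanol minus control for each member in log2 units, with 95% intervals from limma, over both experiments (black), in experiment 1 (blue) and in experiment 2 (orange). Each interval includes 0; the experiment 1 interval of Cnr1 ends at 0.0050, and Cnr1, Faah and Mgll lie on opposite sides of 0 in the 2 experiments.

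The members' counts are given beside the share of all tested probe sets, and the difference from that share was not tested. In experiment 1, 5 of 7 were lower on the ethanol arrays (51.8% of tested probe sets were), which became 2 of 7 after quantile normalization, and 0 had an unadjusted limma p under 0.05 (8.95%). In 3 of the 7, Cnr1, Napepld and Abhd6, the ethanol arrays were all below the controls (19.2%), and after quantile normalization this held for Napepld alone. In experiment 2, 6 of 7 were lower (54.9%), 0 had an unadjusted p under 0.05 (9.97%), and in 1, Abhd6, the groups were apart (11.6%). Dagla, Daglb, Napepld and Abhd6 were lower in both experiments, as were 32.1% of tested probe sets, while Cnr1, Faah and Mgll changed sign between the experiments, as did 42.5%. The intervals were wider within the experiments, holding differences of up to 1.29-fold in experiment 1 (Cnr1) and 1.2-fold in experiment 2 (Daglb).

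The signal of a probe set bears on its direction in these data. Of the 25% of tested probe sets with the highest signal (9.25 and above) 77.5% were lower, by a median of -0.04, and of those between 7.36 and 9.25 77.3% were lower, with a median of -0.05. Daglb lies in the latter group and the other 6 members in the former, and the members' median over both experiments was -0.04. Over all tested probe sets the median was -0.0083. The direction of the members also moved with the scaling: 4 of the 7 were lower over both experiments after quantile normalization of the arrays, and 7 of 7 with each array centred on its median. That centring lowered all differences over both experiments, and among all genes the share lower went from 54.5% to 68.2%. At an unadjusted p under 0.05 it left 425 higher and 2945 lower probe sets, and quantile normalization 482 and 1375. Under neither did a member pass an adjusted p of 0.05.

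**Figure D3:**
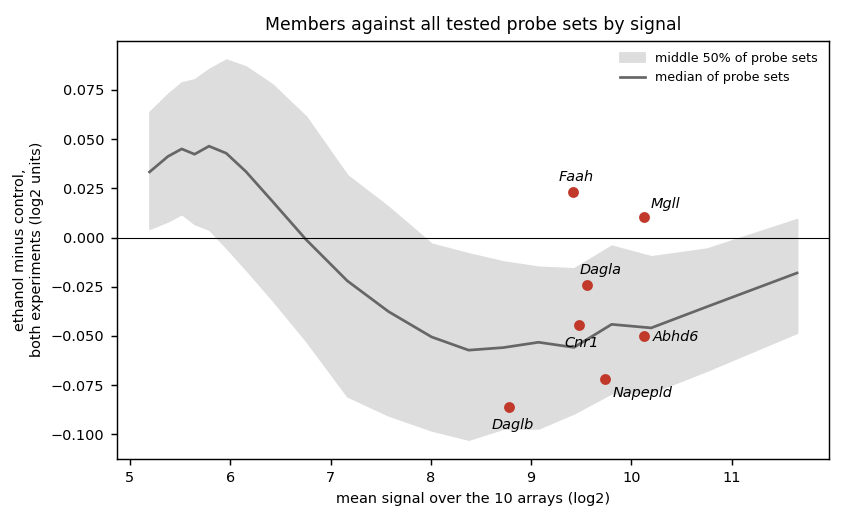
Ethanol minus control over both experiments (log2 units) against mean signal over the 10 arrays (log2) for the 7 members (red), with the median (line) and middle 50% (grey) of all tested probe sets in 20 equal groups by signal. Faah at 0.02 and Mgll at 0.01 lie above the grey band, and the other 5 members lie inside it.

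No pair of members passed an adjusted p of 0.05 for varying together. Over the 10 arrays, as deviations from the mean of the experiment, Pearson's r for the 21 pairs ran from -0.50 (Cnr1 and Mgll) to 0.71 (Daglb and Abhd6), with 11 pairs positive. By the exact two-sided permutation test within experiments, 0 of the 21 pairs had a p under 0.05 for r, and the smallest adjusted p was 0.894 for r and 0.636 for Spearman's rho. Unadjusted, 1 pair had a p under 0.05 for rho, Mgll and Daglb, with rho = 0.66 (exact permutation p = 0.0326, adjusted p = 0.636) and r = 0.48 (exact permutation p = 0.154). Their r was 0.68 without the 2 arrays farthest from the Mgll median. Daglb and Abhd6 had r = 0.71 (exact permutation p = 0.0865) and rho = 0.67 (exact permutation p = 0.0866), and r = 0.60 without the 2 arrays farthest from the Daglb median. Cnr1 and Faah had r = 0.20 (exact permutation p = 0.640, adjusted p = 0.895) and rho = 0.19 (exact permutation p = 0.664), and r = -0.18 without the 2 arrays farthest from the Cnr1 median. As deviations from the mean of their own group of 2 or 3 arrays, Cnr1 and Faah had r = 0.89, given without a test because the deviations within a group of 2 mirror each other. Within experiment 2, over 6 arrays, their r was 0.73, and control replicate 2 was the lowest array and control replicate 3 the highest there for both genes.

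By the same deviations from group means, the genes most like Cnr1 over the 10 arrays among 19937 other genes were Foxi2 (r = 0.988), Adam8 (0.985), Olfr1461 (0.974), Slco4a1 (0.973) and Kcnk12 (0.972). Faah was the member most like it, with r = 0.890 and 0.687% of genes more alike. Those most like Daglb, the member with the smallest p, were Chga (r = 0.974), Dohh (0.971), Adk (0.954), Cyth3 (0.953) and Klra2 (0.952). Among the members Mgll was closest to Daglb, with r = 0.573 and 7.24% of genes more alike. These are the highest of many correlations over few arrays and are given as a description only. Foxi2, Adam8 and Klra2 had low signals of 5.86, 5.67 and 5.71, in or near the lowest 25% of tested probe sets.

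Of 33 symbols listed for the rest of the endocannabinoid pathway, 30 genes had a probe set with 1 symbol. Over both experiments 19 were lower (54.5% of all genes were) and 11 higher. Their median was -0.03 against -0.01 over all genes, and 0 passed an adjusted limma p of 0.05. Unadjusted, 3 of the 30 had a p under 0.05 and were lower (7.68% of tested probe sets) and 0 were higher (4.72%). After quantile normalization 1 of the 30 had an unadjusted p under 0.05, and 21 were lower (59.1% of all genes were).

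Abhd12, a further hydrolase of 2-arachidonoylglycerol, read 9.96 and 10.15 with ethanol in experiment 1 against 10.24 and 10.06, and 10.03, 10.04 and 10.04 in experiment 2 against 10.19, 10.17 and 10.16. The groups overlapped in experiment 1 and were apart in experiment 2, where 11.6% of tested probe sets were apart in this direction. The difference over both was -0.12 ± 0.048 (limma adjusted p = 0.364). The other routes of breakdown on the list were Naaa, an amidase of related lipid amides, at -0.07, and Ptgs2, the inducible cyclooxygenase that oxidises both messengers, at 0.13, with adjusted p above the threshold. Fabp7, a fatty acid carrier of astrocytes and radial glia that can bind anandamide, read 12.54 and 12.34 against 12.68 and 12.58 in experiment 1 and 12.44, 12.31 and 12.65 against 12.63, 12.56 and 12.61 in experiment 2, where ethanol replicate 3 was the highest array. Its difference was -0.15 ± 0.063 (limma adjusted p = 0.375). The carriers Fabp3 and Fabp5 were at -0.10 and -0.07. Astrocyte markers were lower in 5 of 6 over both experiments, with a median of -0.07, and their part in the Fabp7 values was not tested.

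Gdpd1, a phosphodiesterase of an alternative route to anandamide, read 10.99 and 10.94 against 11.09 and 11.06 in experiment 1 and 11.05, 10.96 and 10.94 against 11.11, 11.06 and 11.02 in experiment 2. It was below the control mean on 5 of 5 ethanol arrays (-0.09 ± 0.040, limma adjusted p = 0.386), as were 11.9% of tested probe sets. The 8 genes of alternative anandamide synthesis had a median of -0.03, with 6 lower.

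The other receptors that respond to these lipids, Cnr2, Gpr55, Gpr18, Gpr119 and Trpv1, were on dim probe sets with signals of 5.19 to 6.12, and 4 of the 5 were higher on the ethanol arrays, by a median of 0.03. For Cnr2 (0.06 ± 0.036, limma adjusted p = 0.488) the ethanol arrays were all above the controls in both experiments. The share of tested probe sets apart in that direction is not given here. Gpr55 read 5.38 and 5.49 against 5.15 and 5.35 in experiment 1 and 5.37, 5.37 and 5.36 against 5.28, 5.30 and 5.37 in experiment 2 (0.11 ± 0.050, limma adjusted p = 0.417). Its groups were apart in experiment 1 and overlapped in experiment 2, and each ethanol array was above the control mean of its experiment. Of the 25% of probe sets with the lowest signal (up to 5.87) 20.7% were lower, with a median of 0.04, so dim probe sets in general read higher on the ethanol arrays. The CB1 partners Cnrip1 and Sgip1 were at 0.00 and 0.01.

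The genes for proteins that feed diacylglycerol to the lipases on receptor activation, and for those that carry the CB1 signal onward, had no member past the threshold. Grm5, the glutamate receptor that drives 2-arachidonoylglycerol release, was at 0.06, the Gq subunits Gnaq and Gna11 at -0.03 and -0.07, and the phospholipases Plcb1 and Plcb4 at 0.04 and -0.08. For Plcb4 (-0.08 ± 0.043, limma adjusted p = 0.474) the ethanol arrays were all below the controls in both experiments, as they were for 2.82% of tested probe sets. It was singled out after its values were seen, and Cnr2 was apart in both experiments in the opposite direction. Gnao1, the Go subunit through which CB1 acts on calcium channels and the pathway gene with the brightest probe set, read 12.86 and 12.93 against 12.86 and 12.84 in experiment 1 and 12.87, 12.87 and 12.91 against 12.87, 12.84 and 12.88 in experiment 2 (0.03 ± 0.036, limma adjusted p = 0.759). Each Gnao1 ethanol array was above the control mean of its experiment, as for Gpr55. The Gi subunits Gnai1, Gnai2 and Gnai3 were at -0.04, -0.03 and -0.05.

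**Figure D4:**
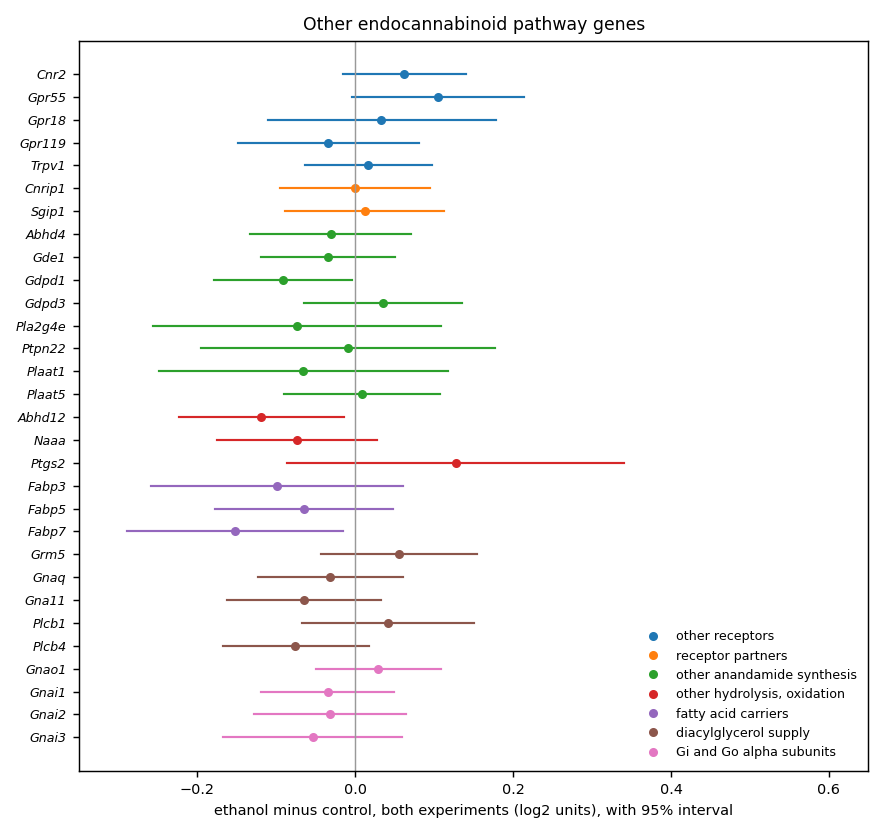
Ethanol minus control over both experiments (log2 units) for the 30 other endocannabinoid pathway genes, with 95% intervals from limma, coloured by role. The intervals of Abhd12, Fabp7 and Gdpd1 lie below 0 before any correction for multiple tests, and those of the other genes include 0.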

How the data were processed

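Per the labels' protocols, 200 ng of pooled whole-brain RNA went onto each Affymetrix whole-transcript array. The authors deposited log2 values for 35556 probe sets on 10 arrays. The submitters' processing notes name Partek 6.6. How background was corrected, how arrays were normalized and whether a batch term was removed is not given in the sources used here. Arrays were grouped by their titles. The platform annotation gave 21789 probe sets 1 gene symbol (19938 genes); 1621 with several symbols were not named and 12146 were not listed.

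limma 3.58.1 (R 4.3.3; lmFit, eBayes, Benjamini-Hochberg over all 21789 at 0.05) was fitted with terms for experiment and treatment, and with 4 group means for each experiment and for the difference between experiments. Signed values are ethanol minus control; errors are SE and intervals 95%. Correlations were tested by exact permutation within experiments (17280 arrangements). Pathway lists used the brightest probe set per gene.

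All probe sets of the members were named. Of the pathway list, those with the 4 smallest p and the 2 highest signals were named with values (Fabp7 by both rules), and of the similar genes the 5 highest r; other genes' differences show their groups and were chosen as group members. The members and lists were chosen with earlier results of these data known. In simulated data for the comparison over both experiments (21789 genes), 27 of 50 genes changed by 0.25 log2 units were called and 47 of 50 changed by 0.5. The simulation also held 50 genes changed by 1 and 50 by 2, which ease the adjusted threshold for the rest. The real data had no call over both experiments, so these shares do not give the chance of a call there. The alternatives covered scaling, filters, probe sets tested, variance prior, array weights, threshold, experiment terms, a replicate block and leaving out each array.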

Additional observations from a re-analysis of the deposited data

How the results depend on the processing

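The alternatives gave 546 member values. None passed an adjusted p of 0.05 (smallest 0.236, for Cnr1 in experiment 1 without ethanol replicate 1), 17 had an unadjusted p under 0.05, and 30 changed sign, each with an unadjusted p of 0.622 or more. With quantile normalization Dagla was 0.011 over both experiments, 0.0203 in experiment 1, 0.0048 in experiment 2 and -0.0155 for the difference between them, and in experiment 1 Abhd6 was 0.0263 and Daglb 0.0286. With median centring Faah was -0.0043 and Mgll -0.0169 over both, and Dagla -0.0188 for the difference between experiments. The cause was not tested. These 9 sign changes came with rescaling, and the other 21 with leaving out 1 array. Many of the 546 differences could not change sign. The filter, probe sets tested, variance prior, threshold, experiment terms and replicate block leave the difference as it was. Leaving out an array of 1 experiment does not move the value of the other. The 30 are therefore not a share of 546 values that were free to change. Leaving out 1 array at a time, the values over both experiments ran from -0.0912 to 0.0043 for Cnr1, -0.013 to 0.0573 for Faah and -0.0293 to 0.0465 for Mgll. In experiment 1 they ran from -0.0876 to 0.0255 for Dagla, -0.0577 to 0.012 for Daglb and -0.025 to 0.1711 for Mgll. In experiment 2 they ran from -0.0168 to 0.0929 for Cnr1, -0.1021 to 0.0031 for Faah, -0.0957 to 0.0244 for Mgll, -0.0468 to 0.0134 for Dagla and -0.1027 to 0.0311 for Napepld, and for the difference between experiments from -0.0449 to 0.0683 for Dagla. Over all probe sets, the trended robust prior called 3 and array weights 2 in experiment 2, and experiment 1 fitted alone called 1. Leaving out 1 array gave 0 to 1 calls over both experiments, 0 to 235 in experiment 1, 0 to 1 in experiment 2 and 0 to 94 for the difference. The 235 and 94 arose without ethanol replicate 1 of experiment 1, where the lone ethanol array left is assumed to vary like the other groups. No member was among these calls. With the replicate number as a block limma called 0 over both experiments, in experiment 1 and in experiment 2; the difference between the experiments was not fitted with the block. In experiment 2 the deviations of same-numbered arrays correlated at 0.0062, -0.15 and 0.23, and those of differently numbered arrays at -0.228 to 0.209. In experiment 1 same-numbered arrays gave -0.052, but deviations within a group of 2 mirror each other, so that value cannot show a pairing. The numbers were not taken as pairs, and this check cannot exclude that they are. The number of arrays limits the precision: the median SE over both experiments was 0.0519 log2 units.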
